A study of Arabidopsis thaliana with 6 samples.

Results

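The genes described here are *JAZ1* to *JAZ10* of *Arabidopsis thaliana*, which encode JASMONATE ZIM-DOMAIN (JAZ) proteins, the repressors of jasmonate signalling. They were chosen by their locus numbers, and all 10 have a value among the 27827 genes of the table. JAZ proteins bind transcription factors of the MYC type and, through the adaptor NINJA or directly, recruit co-repressors of the TOPLESS family to them. When jasmonoyl-isoleucine is present, the receptor COI1 binds JAZ proteins and marks them for destruction by the proteasome, so that the MYC factors are freed. Many *JAZ* genes are themselves transcribed in response to jasmonate, which closes a negative feedback loop, and the hormone is known in seedlings for wound and insect defence and for restricting root growth.

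Transcript levels in whole seedlings were measured on Affymetrix Arabidopsis Gene ST arrays. Of the 6 arrays, 3 are of wildtype (Col-0) and 3 of *naa20* (naa20-1, the T-DNA insertion line SALK_027687), a mutant in the catalytic subunit of the N-terminal acetyltransferase NatB. Per the labels, all seedlings grew on 1xMS medium in short days, were moved at day 2 to medium with 2 mM DTT, a reducing agent, stayed there for 15 days and were harvested at day 17 in pools of at least 10. The methods and a supplementary legend describe the start of DTT and the pooling differently. For long DTT treatments, the methods first kept seeds of *naa20*, which germinate late, on control medium before the move to DTT. Which account holds for each array is not known, nor whether the pools were independently grown. The p-values therefore measure the spread between these pools only. All arrays come from DTT medium, so a difference is one between the genotypes under DTT, and a response to DTT itself cannot be read from them. If the start of DTT or the stage of the seedlings differed between the genotypes, its part cannot be told apart from that of genotype. A value is a log2 signal, and a difference of 1 on this scale is 2-fold. Signals of different genes depend on their probes, so the genotypes are compared within a gene or a list of genes. The share of genes with a lower signal is given in places as a rough guide to how low or high a signal is.

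The *NAA20* transcript (AT1G03150) had signals of 7.44, 6.98 and 7.54 in *naa20* against 8.69, 8.56 and 8.83 in wildtype, lower in every mutant array (log2 difference -1.38, adjusted p = 0.000689 from limma). Where its probes lie relative to the insertion is not known. Markers of plant parts also differed. Over all genes, 33.9% had an adjusted p under 0.05 in limma, 17.4% as lower and 16.6% as higher in *naa20*. Of 7 genes listed for roots 6 had an adjusted p under 0.05 in limma, all lower in *naa20*, and the mean signal of the list lay between 5.65 and 5.98 in *naa20* and between 6.93 and 7.26 in wildtype. Of 6 genes listed for green tissue 4 had such a p, again lower in *naa20*, with mean signals of 7.62 to 7.84 against 8.63 to 8.67. *RBCS1A* had the same signal of 14.18 on all 6 arrays. In both genotypes 99.99% of genes had a lower signal on average. Quantile normalization gives every array the same sorted values, so an equal rank gives an equal signal. Whether the *RBCS1A* transcript itself differed was not tested. Of 5 genes listed for flowers, *SEP3* (log2 difference 2.37) and *AP3* (0.94) were higher in *naa20* with such a p, while the other 3 had differences between -0.01 and 0.08. The adjusted p of *AP3* was 0.0551 without wildtype array 2 and 0.0572 without *naa20* array 1. The mean of the flower list was 3.45 to 3.97 in *naa20* and 2.92 to 3.28 in wildtype. Fewer cells of a type and less RNA per cell cannot be told apart in whole seedlings, and the part of tissue composition in the *JAZ* values was not tested.

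Most *JAZ* transcripts were more abundant in *naa20*, with differences above 0 for 8 of the 10 genes (49.6% of all genes). With an adjusted p under 0.05 in limma and at least a 2-fold difference, 6 of the 10 genes rose (*JAZ1*, *JAZ5*, *JAZ6*, *JAZ7*, *JAZ8* and *JAZ10*) and 1 fell (*JAZ4*). Over all 27827 genes, 4.95% were higher and 4.97% lower by this rule, and 9.92% passed it in either direction. *JAZ2* had an adjusted p under 0.05 but less than a 2-fold difference, and *JAZ3* and *JAZ9* had neither. The p alone was thus under 0.05 for 8 of the 10 genes, and for 33.9% of all genes. The median log2 difference of the 10 genes was 1.26, where that of all genes was close to 0 (-0.0039). The genotypes did not overlap on any array for 8 of the 10 genes, against 47.5% of all genes, and for 7 of these *naa20* was the higher one, against 23.4%. An exact two-sided permutation test of a single gene cannot go below p = 0.1 with 3 arrays against 3, and this smallest value was reached by those 8 genes. The number of arrays limits the precision.

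**Figure D1:**
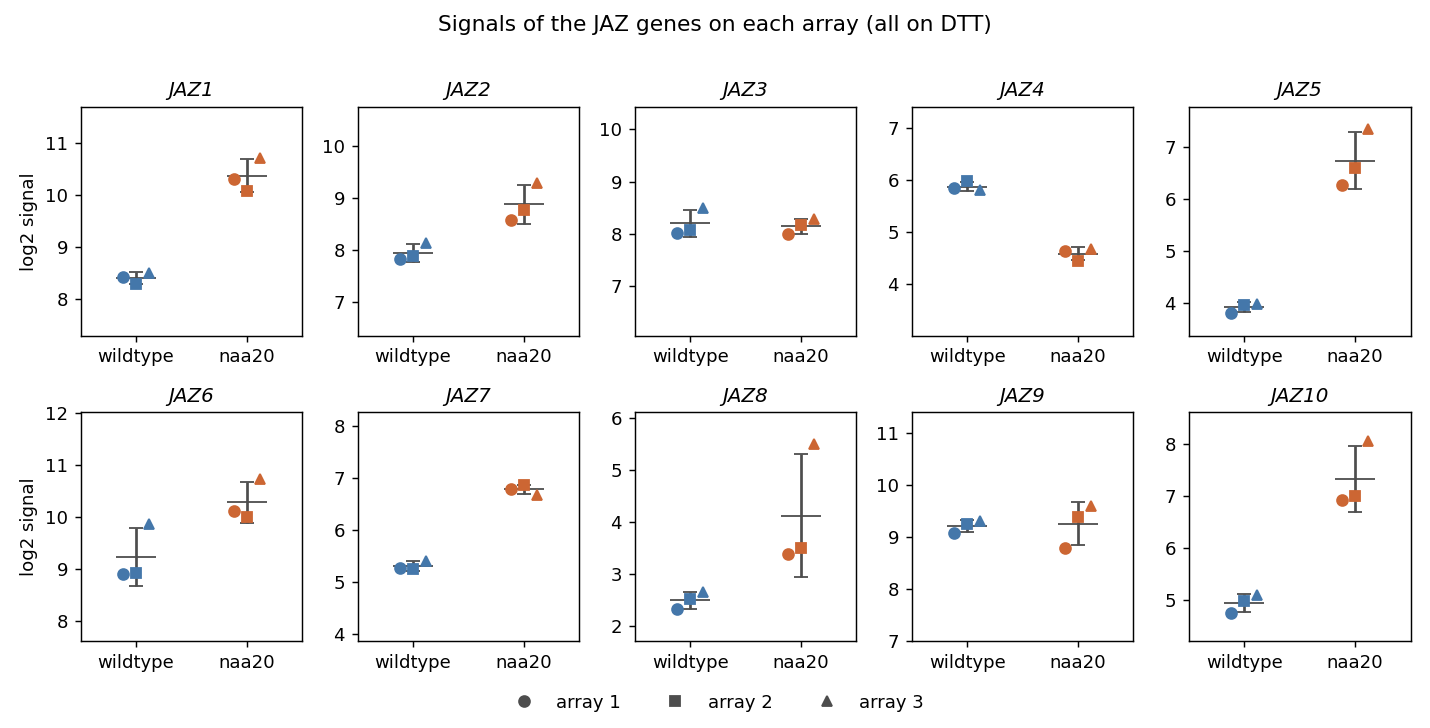
Log2 signal of each *JAZ* gene on the 3 wildtype and 3 *naa20* arrays, all on DTT. Circles, squares and triangles are arrays 1, 2 and 3, the horizontal line is the mean and the bar 1 SD. Each panel spans the same number of log2 units but has its own origin. The genotypes overlap in *JAZ3* and *JAZ9* only, *JAZ4* is lower in *naa20*, and the third *naa20* array is the highest in *JAZ8* with 5.50.

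*JAZ1* and *JAZ2* are close relatives that both carry the degron recognised by COI1. The *JAZ1* (AT1G19180) signals were 10.30, 10.09 and 10.71 in *naa20* and 8.43, 8.28 and 8.51 in wildtype. The lowest *naa20* array thus lay more than 1 unit above the highest wildtype array. The difference was 1.96 (standard error 0.17, adjusted p = 0.000182 from limma), or 3.90-fold with a 95% interval from 2.98 to 5.11. For *JAZ2* (AT1G74950), *naa20* arrays gave 8.58, 8.77 and 9.29 and wildtype arrays 7.82, 7.88 and 8.13. Here too the genotypes did not overlap, but the gap between the nearest arrays was narrower. The difference of *JAZ2* was 0.93 (standard error 0.19, adjusted p = 0.00842 from limma), which is 1.91-fold, just short of the 2-fold limit. The 95% interval of the difference, 0.48 to 1.38, spans that limit, and without the first *naa20* array or the third wildtype array the difference was 1.08 or 1.02, past it.

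*JAZ5* and *JAZ6* form another pair of relatives, and their levels behaved differently. *JAZ5* (AT1G17380) had the largest difference of the 10 genes, with signals of 6.28, 6.60 and 7.34 in *naa20* and of 3.81, 3.97 and 3.98 in wildtype. The wildtype arrays were within 0.2 of each other, while those of *naa20* spread over about 1 unit, all far above wildtype. The log2 difference was 2.82 (standard error 0.25, adjusted p = 0.000233 from limma), a 7.05-fold higher signal with an interval of 4.67 to 10.6. It ranked 181 among all genes from the highest difference down. *JAZ6* (AT1G72450) had signals of 10.12, 10.00 and 10.73 in *naa20* and of 8.90, 8.93 and 9.87 in wildtype. The third wildtype array stood nearly 1 unit above the other wildtype arrays and close to the lowest *naa20* array. The log2 difference of *JAZ6* was 1.05 (standard error 0.30, adjusted p = 0.0329 from limma), 2.07-fold with an interval of 1.27 to 3.39. That call does not hold up against single arrays: without wildtype array 1 or 2 the adjusted p of *JAZ6* was 0.105 and 0.104 from limma, and without the first or the third *naa20* array 0.0668 and 0.0885.

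*JAZ7* and *JAZ8* encode short JAZ proteins. JAZ8 lacks the canonical degron, resists jasmonate-induced destruction and recruits TOPLESS directly. The signals of *JAZ7* (AT2G34600) were 6.78, 6.86 and 6.68 in *naa20* and 5.26, 5.25 and 5.41 in wildtype. Arrays within a genotype differed by less than 0.2, the tightest of the 10 genes in *naa20*. The log2 difference was 1.47 (standard error 0.09, adjusted p = 6.86e-05 from limma), 2.77-fold with an interval of 2.37 to 3.24. *JAZ8* (AT1G30135) had signals of 3.39, 3.49 and 5.50 in *naa20* and of 2.32, 2.51 and 2.65 in wildtype. All *naa20* arrays were above all wildtype arrays, but the third was 2 units above the other *naa20* arrays, which set a wide spread (SD 1.19 in *naa20*, 0.17 in wildtype, n = 3). Its log2 difference was 1.63 (standard error 0.52, adjusted p = 0.0490 from limma), 3.10-fold with an interval of 1.32 to 7.28. On average 4.97% of genes had a lower signal than *JAZ8* in wildtype and 28.7% in *naa20*. Whether the arrays detect its transcript in wildtype was not tested, so the size of the fold is uncertain. Without the third *naa20* array the difference of *JAZ8* was 0.95 (adjusted p = 0.00276 from limma), below the 2-fold limit, and without wildtype array 1, 2 or 3 the adjusted p was 0.127, 0.111 or 0.0847.

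*JAZ10* (AT5G13220) encodes a repressor that limits jasmonate responses and occurs in splice forms, some of which escape destruction. The name table lists 7 RefSeq transcripts for it, more than for any other of the 10 genes, and an array value per gene does not separate them. Its signals were 6.92, 6.99 and 8.06 in *naa20* and 4.75, 4.98 and 5.10 in wildtype. Again the third *naa20* array was the highest, by about 1 unit, and the lowest *naa20* array was well above wildtype. The log2 difference was 2.38 (standard error 0.30, adjusted p = 0.000907 from limma), 5.22-fold with an interval of 3.22 to 8.46. It ranked 277 among all genes from the highest difference down, and among the 10 genes only *JAZ5* had a larger one.

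*JAZ3*, *JAZ4* and *JAZ9* are related to each other, and none of them passed the test as higher in *naa20*. *JAZ3* (AT3G17860) had signals of 7.98, 8.16 and 8.28 in *naa20* and of 8.02, 8.07 and 8.49 in wildtype. The ranges of the genotypes overlapped almost fully. The log2 difference was -0.05 (adjusted p = 0.824 from limma), with a 95% interval from -0.41 to 0.30. For *JAZ9* (AT1G70700), the *naa20* arrays gave 8.79, 9.37 and 9.59 and the wildtype arrays 9.06, 9.25 and 9.29. The *naa20* arrays lay on both sides of wildtype, and the difference of 0.05 (adjusted p = 0.889 from limma) had an interval from -0.43 to 0.52. A 2-fold change in either direction lies outside both intervals, and both differences changed sign when single arrays were left out. *JAZ4* (AT1G48500) was the exception in the other direction, with 4.63, 4.43 and 4.67 in *naa20* and 5.83, 5.97 and 5.79 in wildtype. Every wildtype array stood more than 1 unit above every *naa20* array. The log2 difference was -1.29 (standard error 0.10, adjusted p = 0.000148 from limma), 2.45-fold lower with an interval of 2.07 to 2.89.

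**Figure D2:**
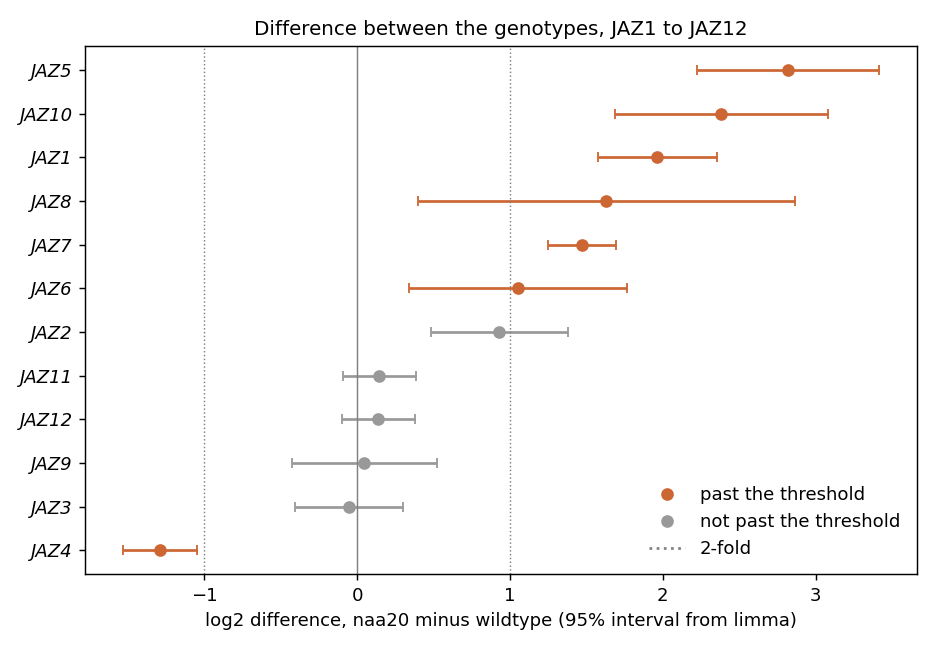
Log2 difference between *naa20* and wildtype for *JAZ1* to *JAZ12*, sorted by size, with 95% intervals from limma. Dotted lines mark 2-fold. *JAZ5* is highest with 2.82 and *JAZ4* lowest with -1.29. The intervals of *JAZ8* and *JAZ6* are the widest among the genes past the threshold.

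The *JAZ* genes also varied together between pools of the same genotype. On the third *naa20* array 9 of the 10 genes had their highest *naa20* signal, and on the third wildtype array 9 of 10 had their highest wildtype signal. The exceptions were *JAZ7* in *naa20* and *JAZ4* in wildtype. Over all genes, 34.1% had their highest *naa20* signal on the third array and 35.9% their highest wildtype signal there. The median deviation of the 10 genes from the genotype mean was 0.38 on the third *naa20* array and 0.13 on the third wildtype array, against -0.0094 and -0.0075 over all genes. With array 3 of both genotypes left out, a setting chosen after seeing the data, 7 members were again past the threshold, 6 of them higher. In that fit 2918 of all genes passed it in either direction. *JAZ4* and *JAZ7* varied least between pools, with no deviation above 0.15 on any array.

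**Figure D3:**
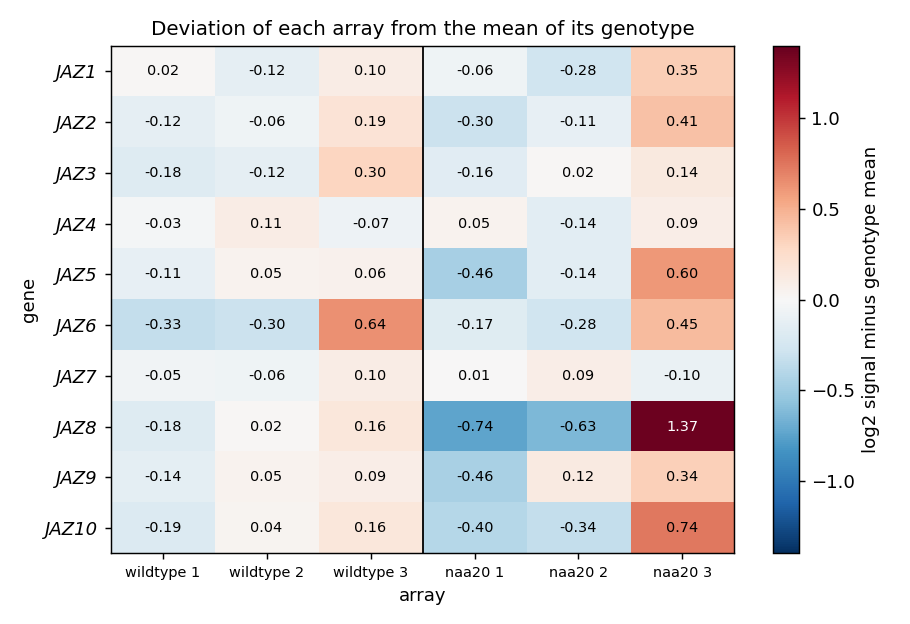
Deviation of each array from the mean of its genotype, in log2 units, for the 10 *JAZ* genes. Red is above and blue below the mean. The third array of *naa20* is above the mean for all genes but *JAZ7*, and reaches 1.37 in *JAZ8*.

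JAZ proteins belong to the wider TIFY family. *JAZ11* (AT3G43440) had signals of 9.11, 9.11 and 8.88 in *naa20* and of 8.79, 8.91 and 8.95 in wildtype, and *JAZ12* (AT5G20900) had 9.42, 9.71 and 9.55 against 9.38, 9.44 and 9.45. In both genes the genotypes overlapped, with log2 differences of 0.15 and 0.14 (adjusted p = 0.328 and 0.346 from limma). Of 8 family members outside the 10 genes, *JAZ11* and *JAZ12* included, 1 passed the threshold, where 9.92% of all genes did. It was *TIFY8* (AT4G32570), which lacks the Jas motif of JAZ proteins and was lower in *naa20*, with 8.33, 8.56 and 8.23 against 9.59, 9.59 and 9.21 in wildtype (log2 difference -1.09, adjusted p = 0.00109 from limma). The remaining 5, among them the leaf growth regulators *PPD1* and *PPD2*, lay between -0.32 and -0.01. AT3G22275, listed as *JAZ13* but not paired with that symbol in the name table, was left out of these counts. Its genotypes overlapped, with a difference of 0.16 (adjusted p = 0.363 from limma). On average 6.19% of genes had a lower signal in wildtype, and whether the arrays detect its transcript was not tested.

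For the machinery around the repressors, no gene passed the threshold, where 9.92% of all genes did. Among 11 genes of the receptor complex and the co-repressors, the receptor gene *COI1* (AT2G39940) had signals of 8.35, 8.39 and 8.17 in *naa20* and 8.21, 8.28 and 7.95 in wildtype, and the adaptor gene *NINJA* (AT4G28910) had 9.14, 9.21 and 9.08 against 8.99, 9.11 and 8.91. The genotypes overlapped in both, with log2 differences of 0.16 and 0.14 (adjusted p = 0.356 and 0.302 from limma). An adjusted p under 0.05 in limma was found for 5 of the 11, and for 33.9% of all genes. The 5 all had less than a 2-fold difference. The co-repressor genes *TPR1* to *TPR4* were lower in *naa20*, from -0.46 in *TPR3* to -0.27 in *TPR2*, and the scaffold gene *CUL1* was higher with 0.29. Only *TPR1* kept such a p whichever single array was left out, while *CUL1* and *TPR3* lost it in 4 of 6 such fits, *TPR4* in 5 and *TPR2* in all 6. With the replicate number as a block *CUL1* and *TPR2* had adjusted p = 0.0550 and 0.0667 from limma. *TPL* itself had a difference of 0.04 (adjusted p = 0.792 from limma).

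Genes of 11 transcription regulators that JAZ proteins bind, or that work with these, had a median log2 difference of 0.03. *MYC2* (AT1G32640), which encodes the main target of JAZ repression, had 4.86, 4.94 and 4.43 in *naa20* and 4.93, 4.41 and 3.62 in wildtype. Its wildtype arrays spread over more than 1 unit and overlapped *naa20*, so that the difference of 0.42 was not distinguishable (adjusted p = 0.365 from limma). *MYC3* (AT5G46760) was higher in *naa20* by 0.30 (adjusted p = 0.0398 from limma), with 8.09, 8.16 and 8.23 against 7.80, 7.82 and 7.96. This does not hold up against single arrays, since its adjusted p from limma was between 0.0652 and 0.127 without any 1 of the arrays other than wildtype array 3. *MYC4* (AT4G17880) had 5.19, 4.98 and 4.83 in *naa20*, with wildtype arrays on both sides of these, and a difference of -0.35 (adjusted p = 0.303 from limma). The lowest value of the list was that of *EIL1*, an ethylene signalling factor, with -0.50 (adjusted p = 0.0145 from limma, and 0.0550 without the first *naa20* array).

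Some of the genes that make jasmonate, conjugate it or break it down rose, and others did not pass the test. Of 10 synthesis genes 6 rose past the threshold and none fell, where 4.95% of all genes were higher and 4.97% lower past it. The 6 synthesis genes were the lipoxygenase genes *LOX2*, *LOX3* and *LOX4*, the cyclase gene *AOC3*, the reductase gene *OPR3* and *OPCL1*, which acts after it. Their differences ran from 1.36 (*OPR3*) to 2.40 (*LOX3*). *AOS*, which commits the pathway to jasmonate, had 8.03, 8.09 and 8.83 in *naa20* and 8.19, 8.10 and 8.51 in wildtype. Its arrays overlapped and its difference of 0.05 changed sign with single arrays left out (adjusted p = 0.897 from limma). The conjugating enzyme gene *JAR1*, whose product makes the active hormone, had a difference of 0.01 (adjusted p = 0.935 from limma).

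Of 11 genes listed for jasmonate conjugation and turnover, the 7 paired with their symbol in the name table were counted. Of these 7, 4 rose past the threshold and none fell, or 2 with ordinary variance per gene. Over all genes, 4.95% were higher and 4.97% lower past the threshold. Of the loci left out, AT3G55970 (log2 difference 4.62), AT2G38240 (3.24) and AT5G05600 (1.68) also passed as higher, and AT3G11180 (-0.30) did not pass. *IAR3* (AT1G51760), which encodes an amidohydrolase that splits the active conjugate, had 10.20, 9.99 and 10.22 in *naa20* against 8.16, 8.29 and 8.37 in wildtype, and differed by 1.86 (adjusted p = 4.29e-05 from limma). The related *ILL6* differed by 1.57 and the sulfotransferase gene *ST2A* by 1.12, which fell below 2-fold without the second *naa20* array (0.92) or the third wildtype array (0.997). *CYP94C1*, for an oxidase of the conjugate, had 4.57, 3.94 and 5.91 against 3.18, 2.95 and 3.09, again highest on the third *naa20* array (difference 1.73, adjusted p = 0.0211 from limma). Without wildtype array 1 or 2 its adjusted p was 0.0544 and 0.0654. *CYP94B3*, of the same enzyme family, had overlapping arrays and a difference of 0.14 (adjusted p = 0.546 from limma), and *CYP94B1* was lowest of the 7 with -0.17 (adjusted p = 0.310).

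Outputs of jasmonate signalling are often divided into a MYC branch, tied to wounding and insects, and an ERF branch shared with ethylene. Of 8 MYC branch genes 5 rose past the threshold and none fell, where 4.95% of all genes were higher and 4.97% lower past it. The tyrosine aminotransferase gene *TAT3* (AT2G24850) had 9.46, 9.53 and 9.37 in *naa20* against 4.16, 3.63 and 4.83 in wildtype, which is 5.25 log2 units higher (adjusted p = 3.42e-05 from limma, standard error 0.27). *NAC019* differed by 2.46, *CORI3* by 2.26, *NAC055* by 1.80 and *VSP1* by 1.31. The count was 3 with ordinary variance per gene, where *CORI3* and *VSP1* had adjusted p = 0.0542 and 0.132 from limma. *VSP1* also lost its call without wildtype array 1 or 2 (adjusted p = 0.0582 and 0.0878 from limma) or *naa20* array 1 or 2 (0.103 and 0.0978). *VSP2*, a storage protein gene much used as a marker of this branch, had 3.44, 3.26 and 3.12 against 3.34, 3.09 and 3.40, with no separation of the genotypes (difference -0.01, adjusted p = 0.97 from limma). On average 18.8% of genes had a lower signal than *VSP2* in wildtype and 18.7% in *naa20*. Whether the arrays detect its transcript was not tested. *CLH1* had the lowest value with -0.61 (adjusted p = 0.332 from limma), and -1.17 without the third wildtype array (adjusted p = 0.00170), past the threshold.

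Of 7 ERF branch genes 1 passed the threshold, where 9.92% of all genes did. It was *PR4* (AT3G04720), with 12.21, 12.35 and 12.30 in *naa20* against 10.38, 10.25 and 10.43 in wildtype (difference 1.93, adjusted p = 2.65e-05 from limma). The p alone was under 0.05 for 2 of the 7, and for 33.9% of all genes. The second was *CHIB*, higher in *naa20* by less than 2-fold without overlap of the genotypes (difference 0.46, adjusted p = 0.00747 from limma). *PDF1.2*, the defensin gene that marks this branch, had 2.29, 2.35 and 2.15 against 1.84, 2.21 and 2.25, with overlapping genotypes (difference 0.16, adjusted p = 0.398 from limma). The regulators *ERF1* and *ORA59* had differences of 0.53 and 0.07 (adjusted p = 0.0614 and 0.687 from limma). *THI2.1* had the lowest value of the list with 0.04, whose sign changed with single arrays left out. These signals were low: on average 0.87% of genes had a lower signal than *PDF1.2* in wildtype and 1.74% in *naa20*. The shares were 3.21% and 4.09% for *ORA59*, 6.82% and 16.2% for *ERF1*, and 12.9% and 13.5% for *THI2.1*. Whether the arrays detect these transcripts was not tested, so the values do not show that they are unchanged. Whether the branches differ from each other was not tested.

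**Figure D4:**
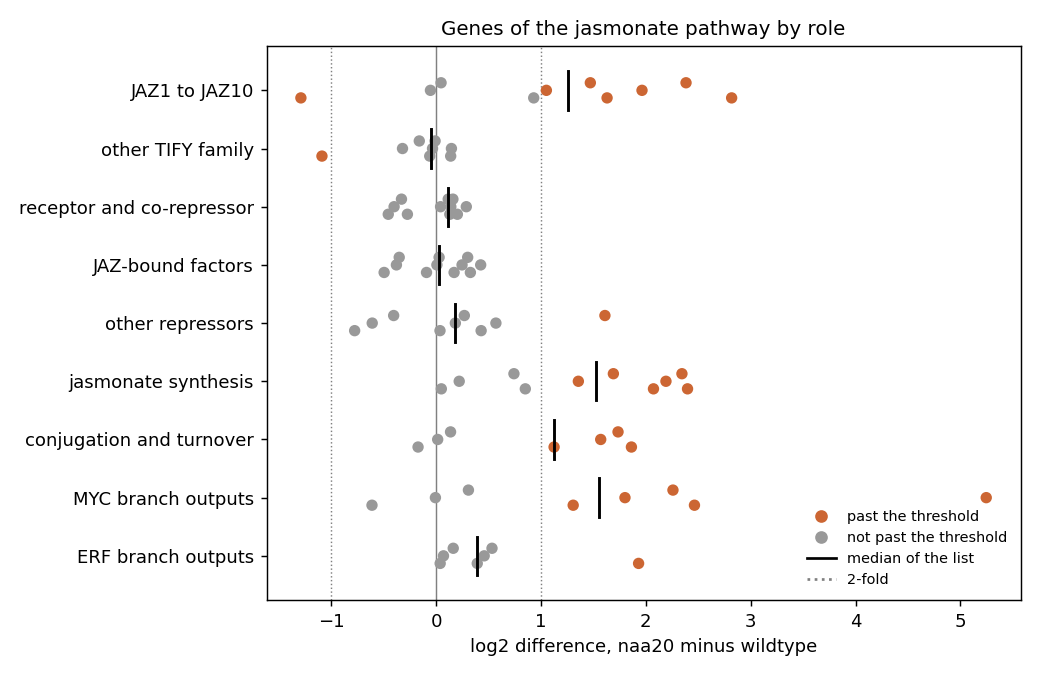
Log2 difference between *naa20* and wildtype for *JAZ1* to *JAZ10* and 8 lists of genes around them. A point is a gene, orange points passed the threshold, black lines are medians and dotted lines mark 2-fold. Genes not paired with their symbol are left out. The medians of synthesis (1.52), turnover (1.12) and MYC branch genes (1.55) lie near that of the *JAZ* genes (1.26), and those of the receptor, co-repressor and JAZ-bound factor lists near 0.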

How the data were processed

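The authors deposited log2 signals that they had background-corrected by RMA and quantile normalized, summarised to 1 value per gene with a custom CDF that follows TAIR gene models. Sorted, the 6 arrays hold identical values (minimum 1.75, median 6.12, maximum 14.6). Probe signals were not used here, so background was not examined, and cross-hybridization between related *JAZ* genes was not checked. The genome build is not given in the sources used here.

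Signals were used as deposited. For the comparison of genotypes, lmFit and eBayes of limma 3.58.1 were run in R 4.3.3, and p-values were adjusted by Benjamini-Hochberg across the 27827 genes. The threshold was an adjusted p under 0.05 with a difference of 2-fold or more. Differences are *naa20* minus wildtype. Single genes were also compared by an exact permutation test in scipy 1.17.1. On simulated data with the spread of the 27827 genes of this comparison, 197 of 200 changed genes were recovered, and 3 unchanged genes were called. In the real data 33.9% of genes had an adjusted p under 0.05 in limma, a far larger share. Recovery of differences near the 2-fold limit, as in *JAZ2* and *JAZ6*, was not tested.

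Names came from a RefSeq table (TAIR10.1), which paired 99 of 105 listed genes with their symbol, all 10 *JAZ* genes included. The other 6 were left out of the counts. Named genes are the *JAZ* genes, *NAA20*, the 5 genes most like the *JAZ* mean, *COI1*, *NINJA* and *MYC2* to *MYC4*, and of each list its lowest and its highest gene by difference and up to 4 past the threshold. Other genes in the text complete a count or were picked with their values known. The genes and lists were chosen with earlier results of these data known, and gene lists carry no test of their own.

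Same-numbered arrays deviated together from their genotype means (r = 0.176, 0.190 and 0.385 across genes), over a limit of 0.1 set for pairing. Arrays 1 and 2 are not paired by number in this way. Array 1 of *naa20* with array 2 of wildtype had r = 0.174, and array 2 of *naa20* with array 1 of wildtype 0.145. Only array 3 of each genotype stood apart, with r from -0.287 to -0.239 to arrays 1 and 2 of the other genotype. Deviations cancel out within a genotype, so these negative values follow in part from the positive ones and are not separate evidence. Neither labels nor methods say what a number shares.

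As alternatives, the fit was repeated with the replicate number as a block, with array weights, with ordinary variances, with trended and robust moderation, after quantile normalization was applied again, after median centring, without the 25% of genes of lowest mean signal, at a 1.5-fold limit, without each array in turn and, added after seeing the data, without array 3 of both genotypes. Figures were drawn with matplotlib 3.10.9.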

Additional observations from a re-analysis of the deposited data

How the results depend on the processing

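Between 5 and 8 *JAZ* genes passed the threshold under the 15 alternatives (7 as reported), and leaving out single arrays gave 5 to 7. The genes that moved were *JAZ2*, *JAZ6* and *JAZ8*, while *JAZ1*, *JAZ4*, *JAZ5*, *JAZ7* and *JAZ10* kept their calls under all 14 alternatives run for single genes. *JAZ6* and *JAZ8* had an adjusted p of 0.0574 and 0.0884 with trend and robust moderation. With ordinary variance per gene 5 *JAZ* genes had an adjusted p under 0.05, against 8 as reported, with 0.0567 for *JAZ2*, 0.134 for *JAZ6* and 0.174 for *JAZ8*. The same setting took turnover genes past the threshold from 4 to 2 and MYC branch genes from 5 to 3. *JAZ8* was left out with the lowest 25% of genes. Without the third *naa20* array the median of the 10 genes was 0.89, and leaving out single arrays gave 0.89 to 1.45. With a 1.5-fold limit 5834 of all genes passed, against 2760. The other alternatives gave 2481 to 2918 of all genes.

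Signs changed near 0 only. With array 3 of both genotypes left out, a setting added after seeing the data, *JAZ3* had 0.025, *JAZ9* -0.077, *AOS* -0.086 and *THI2.1* -0.022. With array weights *JAZ9* had -0.028. Leaving out single arrays gave -0.14 to 0.094 for *JAZ3*, -0.12 to 0.28 for *JAZ9*, -0.21 to 0.19 for *AOS* and -0.076 to 0.15 for *THI2.1*. With the replicate number as a block 7 *JAZ* genes passed the threshold and 8 had an adjusted p under 0.05. The block changed no call of a *JAZ* gene and no count of the pathway lists past the threshold. Among genes with less than a 2-fold difference, *CUL1*, *TPR2* and *JAM3* then had an adjusted p of 0.0550, 0.0667 and 0.0717. The cause of these changes was not tested.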

Other observations

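A further list held 9 genes for repressors that act beside JAZ proteins, namely *JAV1*, *JAM1* to *JAM3* and 5 DELLA genes. Of these 9, 1 passed the threshold, where 9.92% of all genes did. *JAV1* (AT3G22160), which encodes a repressor of defence that jasmonate removes, had 4.92, 5.06 and 5.003 in *naa20* and 3.34, 3.31 and 3.49 in wildtype. The arrays of a genotype lay within 0.2 of each other, and the log2 difference was 1.61 (standard error 0.09, adjusted p = 4.67e-05 from limma). It was the gene past the threshold. The bHLH repressors *JAM1* and *JAM3*, which compete with MYC factors, were higher by 0.57 and 0.43 (adjusted p = 0.0127 and 0.0398 from limma). *JAM3* lost this p in 4 of the 6 fits that leave out a single array, and its adjusted p was 0.0717 in the blocked fit. DELLA proteins, repressors of gibberellin signalling, bind JAZ proteins and hold them away from MYC factors. Their genes *RGA* and *GAI* were lower in *naa20* by less than 2-fold, with differences of -0.78 and -0.61 (adjusted p = 0.00231 and 0.0357 from limma, the second lost in 5 of the 6 fits that leave out a single array), while *RGL1*, *RGL2* and *RGL3* had no adjusted p under 0.05. *RGA* had 6.85, 6.85 and 6.59 in *naa20* against 7.68, 7.55 and 7.39 in wildtype, and was the lowest of the list.

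The 5 genes whose signals over the 6 arrays were most like the mean of the centred *JAZ* signals were AT2G18150, *IP5PII*, AT4G28350, *GGP1* and *ERF-1*, with Pearson's r between 0.996 and 0.999. These points share arrays, and 650 of the other 27817 genes (2.34%) had an r over 0.95, so the ranking is a description. *ERF-1* (AT4G17500), an ethylene response factor gene, had 4.91, 5.01 and 5.93 in *naa20* and 3.44, 3.45 and 3.66 in wildtype (difference 1.76, adjusted p = 0.00193 from limma). *IP5PII* (AT4G18010), for an inositol polyphosphate phosphatase, had 9.08, 9.14 and 10.11 against 7.57, 7.59 and 7.98 (difference 1.73, adjusted p = 0.00300 from limma). Both were highest on the third array of each genotype, as the choice by likeness favours. Each *JAZ* gene is itself part of that mean, so its own r is raised by construction, and ranged from -0.89 (*JAZ4*) to 0.997 (*JAZ2*).

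Neighbouring genes were looked at after the *JAZ* values had been seen. Of the 20 protein-coding genes that flank a *JAZ* gene, 1 passed the threshold, AT5G13210 beside *JAZ10*, with a difference of 1.16 (adjusted p = 0.000122 from limma). Over all genes 9.92% passed. *JAZ5* and the synthesis gene *LOX3* are separated by 2 protein-coding genes in the RefSeq table, and *JAZ6* and *LOX4* by 6. *JRG21* (AT3G55970), named in the table as a jasmonate-regulated gene, is the locus with the largest difference among those left out of the turnover counts. It had 7.62, 8.04 and 8.10 in *naa20* and 3.40, 2.75 and 3.73 in wildtype, which is 4.62 log2 units higher (adjusted p = 4.22e-05 from limma).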
